A study of Homo sapiens with 24 samples.

Results

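The comparison set 2 libraries of the double knockdown labelled KAT2AB_KD against 2 libraries of the control genotype labelled NT, all at the Differentiated stage. These are 4 of the 24 libraries in the series, chosen by their genotype and stage labels. The cells were N/TERT-1 (nTERT-1 in the labels), an immortalised line of human keratinocytes, and polyadenylated RNA was sequenced. The whole series crosses 4 genotypes (NT, KAT2A_KD, KAT2B_KD and KAT2AB_KD) with 3 stages (Subconfluent, Confluent and Differentiated), which makes 12 groups of 2 libraries. Every group, NT included, carries the same treatment label, keratinocyte differentiation, and the deposited sample table puts the Differentiated stage at day 4. What NT stands for, how the knockdowns were made, whether a line is 1 clone and whether both libraries of a group are independent cultures is not given in the sources used here. The p-values therefore measure only the spread between libraries, which may be technical.

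KAT2A and KAT2B are closely related lysine acetyltransferases. Either can serve as the catalytic subunit that acetylates histones within the coactivator complexes SAGA and ATAC. Keratinocytes that differentiate leave the cell cycle, switch from basal keratins to KRT1 and KRT10, and build a cornified envelope of crosslinked proteins under the plasma membrane. Many envelope proteins are encoded side by side in the epidermal differentiation complex on chromosome 1, among them the late cornified envelope (LCE) genes. The LCE3 group is known for its induction in injured and psoriatic skin.

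Levels are given in CPM, a gene's counts scaled by the TMM-adjusted total of its library, with the value of replicate 1 before that of replicate 2. The KAT2A level was 12.8 and 9.995 CPM in NT and 1.98 and 6.85 CPM in KAT2AB_KD. For KAT2B the levels were 44.8 and 40.4 CPM in NT and 5.85 and 18.9 CPM in KAT2AB_KD. Both transcripts were lower in each KAT2AB_KD library than in either NT library, and both were lower in KAT2AB_KD replicate 1 than in replicate 2. The difference in KAT2A did not pass the test (log2 fold change -1.36, SE 0.47, adjusted p = 0.144, edgeR's quasi-likelihood test with Benjamini-Hochberg adjustment over 15757 genes, as for all adjusted p-values here). KAT2B passed (log2 fold change -1.78, SE 0.47, adjusted p = 0.0484), but the call was lost without KAT2AB_KD replicate 1 (adjusted p = 0.287), NT replicate 1 (0.201) or NT replicate 2 (0.195). In these leave-one-out fits the remaining library of the group is assumed to vary like the libraries of the other groups. In the single knockdowns KAT2A stood at 3.03 and 4.94 CPM in KAT2A_KD and KAT2B at 4.58 and 8.59 CPM in KAT2B_KD.

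The 4 libraries held 13254585 to 15065915 counts, within a range of 8010178 to 16054003 over the series. At an adjusted p under 0.05, 431 of 15757 genes (2.74%) differed between KAT2AB_KD and NT, 247 higher (1.57%) and 184 lower (1.17%) in KAT2AB_KD. Both KAT2AB_KD libraries lay above both NT libraries for 21.9% of genes and below both for 19.7%. The count fell to 112 without KAT2AB_KD replicate 1, 138 without NT replicate 1 and 67 without NT replicate 2, and was 326 without KAT2AB_KD replicate 2. The members of the gene lists below are read against these shares. In a fit of these 4 libraries alone 122 genes passed, and 57 of the 103 named genes that passed were lost. This loss is not given for every gene below. In cultures of mixed maturity, fewer cells of a type and less RNA per cell cannot be told apart.

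**Figure D1:**
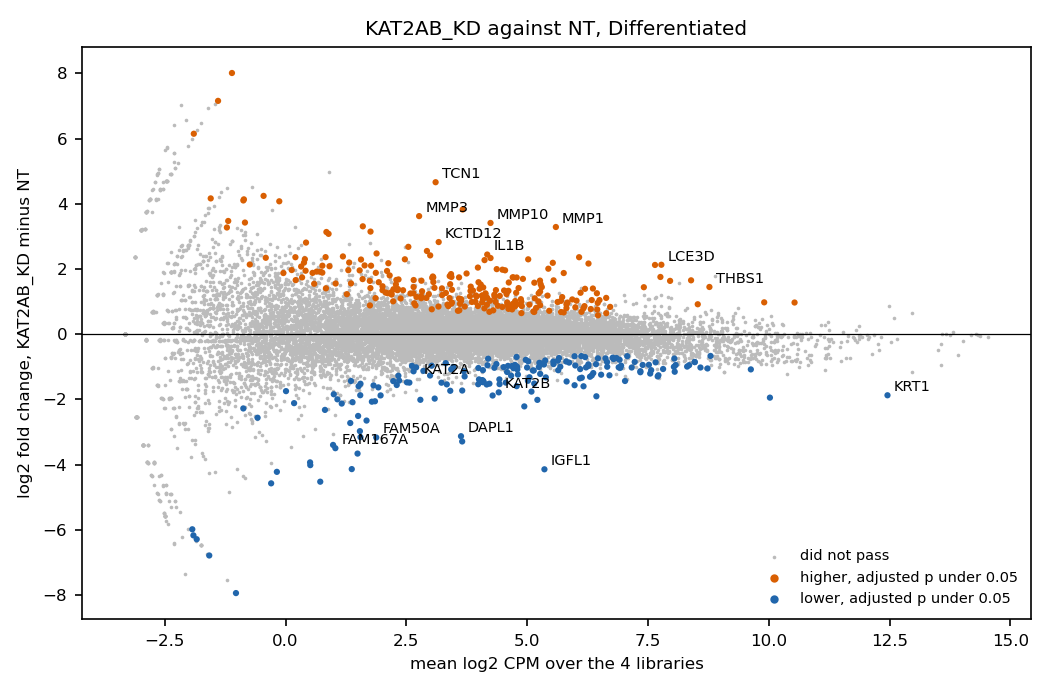
Each point is a gene, with its mean log2 CPM over the 4 Differentiated libraries on the x axis and its log2 fold change (KAT2AB_KD minus NT) on the y axis. The 247 genes that passed as higher are orange and the 184 that passed as lower are blue and 15 genes are labelled, among them TCN1 with a log2 fold change of 4.66 and IGFL1 with -4.14.

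The LCE3 genes rose as a group. All 5 tested members passed as higher in KAT2AB_KD, with a median log2 fold change of 2.13 beside a median of 0 over all genes tested. LCE3E stood at 85.9 and 107 CPM in NT and 386 and 454 CPM in KAT2AB_KD, 4.36-fold higher (log2 fold change 2.12, SE 0.23, adjusted p = 0.000101). LCE3D stood at 91.4 and 119 CPM in NT and 429 and 494 CPM in KAT2AB_KD (log2 fold change 2.13, SE 0.26, adjusted p = 0.000276). LCE3C went from 35.6 and 37.3 to 145 and 183 CPM (log2 fold change 2.17, SE 0.32, adjusted p = 0.00104). In each of these genes both KAT2AB_KD libraries lay far above both NT libraries, and the calls for LCE3B, LCE3C, LCE3D and LCE3E held without any 1 library. LCE3B stood at 19.3 and 24.3 CPM in NT and 83.4 and 116 CPM in KAT2AB_KD (log2 fold change 2.19, SE 0.34, adjusted p = 0.00243). LCE3A stood at 21.4 and 21.8 CPM in NT and 80.4 and 93.4 CPM in KAT2AB_KD (log2 fold change 2.01, SE 0.37, adjusted p = 0.0122), a call lost without NT replicate 1 (adjusted p = 0.0861) or NT replicate 2 (0.112). The ratio of LCE3D to LCE3E stayed between 1.06 and 1.12 in the 4 libraries. How reads shared by near-identical members were counted is not given in the sources used here, so the 5 genes may be less than 5 separate measurements.

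The promoters of LCE3C, LCE3D and LCE3E are shown because these genes rose together and lie next to each other. The sequences are from RefSeq (GRCh38.p14; the counts rest on hg19, per the submitters' processing notes, and genes were matched by symbol), and each runs from 110 bases before the annotated start to 20 bases after it. LCE3C is at chr1:152600124-152600253 on the plus strand, LCE3D at chr1:152580497-152580626 on the minus strand and LCE3E at chr1:152566761-152566890 on the minus strand. Capitals mark the letters GATAAAAG, which begin 29, 29 and 30 bases before the starts and were picked after the windows had been read.
LCE3C: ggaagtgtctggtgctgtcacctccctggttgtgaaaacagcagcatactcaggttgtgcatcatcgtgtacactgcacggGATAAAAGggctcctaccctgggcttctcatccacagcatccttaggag
LCE3D: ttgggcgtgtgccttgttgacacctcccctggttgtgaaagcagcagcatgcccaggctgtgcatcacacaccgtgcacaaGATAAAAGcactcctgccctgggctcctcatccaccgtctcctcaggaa
LCE3E: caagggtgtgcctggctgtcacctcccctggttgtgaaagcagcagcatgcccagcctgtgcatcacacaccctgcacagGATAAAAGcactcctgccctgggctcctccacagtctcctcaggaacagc
The longest run that LCE3D and LCE3E share in these windows is 36 bases, and the longest that either shares with LCE3C is 14 bases. GATAAAAG was searched on both strands over 250 bases before to 50 after the start. It lies in promoters of 4 of the 5 LCE3 genes (LCE3B, LCE3C, LCE3D and LCE3E) and of 1.08% of 27305 genes. Because the letters were picked from the LCE3C, LCE3D and LCE3E windows, those matches were fixed beforehand and the shares are not a test. The canonical TATA letters TATAAA, on either strand, lie in none of the 5 and in 11.5% of promoters. These are matches of letters and not measured binding sites.

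Neighbouring envelope families had few calls or none. Of 12 tested genes of the LCE1 and LCE2 list, which also holds LCE5A and LCE6A, 1 passed (8.33%), although all 12 had both KAT2AB_KD libraries above both NT libraries, with a median log2 fold change of 1.57. The one that passed, LCE5A, stood at 8.41 and 12.5 CPM in NT and 34.5 and 49.1 CPM in KAT2AB_KD (log2 fold change 2.0, SE 0.48, adjusted p = 0.0309). Its call was lost without KAT2AB_KD replicate 1 (adjusted p = 0.0766), NT replicate 1 (0.231), KAT2AB_KD replicate 2 (0.163) or NT replicate 2 (0.15). Of the 11 SPRR genes, whose small proline-rich proteins crosslink the envelope, 0 passed by edgeR (6 by DESeq2), 8 lay above NT in both libraries and 3 below. SPRR2E, the member with the lowest p, stood at 154 and 141 CPM in NT and 439.7 and 236 CPM in KAT2AB_KD (log2 fold change 1.19, SE 0.34, adjusted p = 0.0675), and reads of the SPRR2 genes may be shared. Of 15 other envelope precursors 0 passed by edgeR (1 by DESeq2). Loricrin (LOR), a main envelope protein, stood at 78 and 81 CPM in NT and 29.99 and 30.04 CPM in KAT2AB_KD, without overlap (log2 fold change -1.41, SE 0.38, adjusted p = 0.0765). Filaggrin (FLG) stood at 16340.4 and 11555 CPM in NT and 11139 and 8856 CPM in KAT2AB_KD (log2 fold change -0.48, SE 0.64, adjusted p = 0.799). None of 5 tested genes of the filaggrin list and none of 6 transglutaminases, the enzymes that crosslink the envelope, passed by edgeR or DESeq2. At an unadjusted p under 0.05, 2485 of 15757 genes differed.

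**Figure D2:**
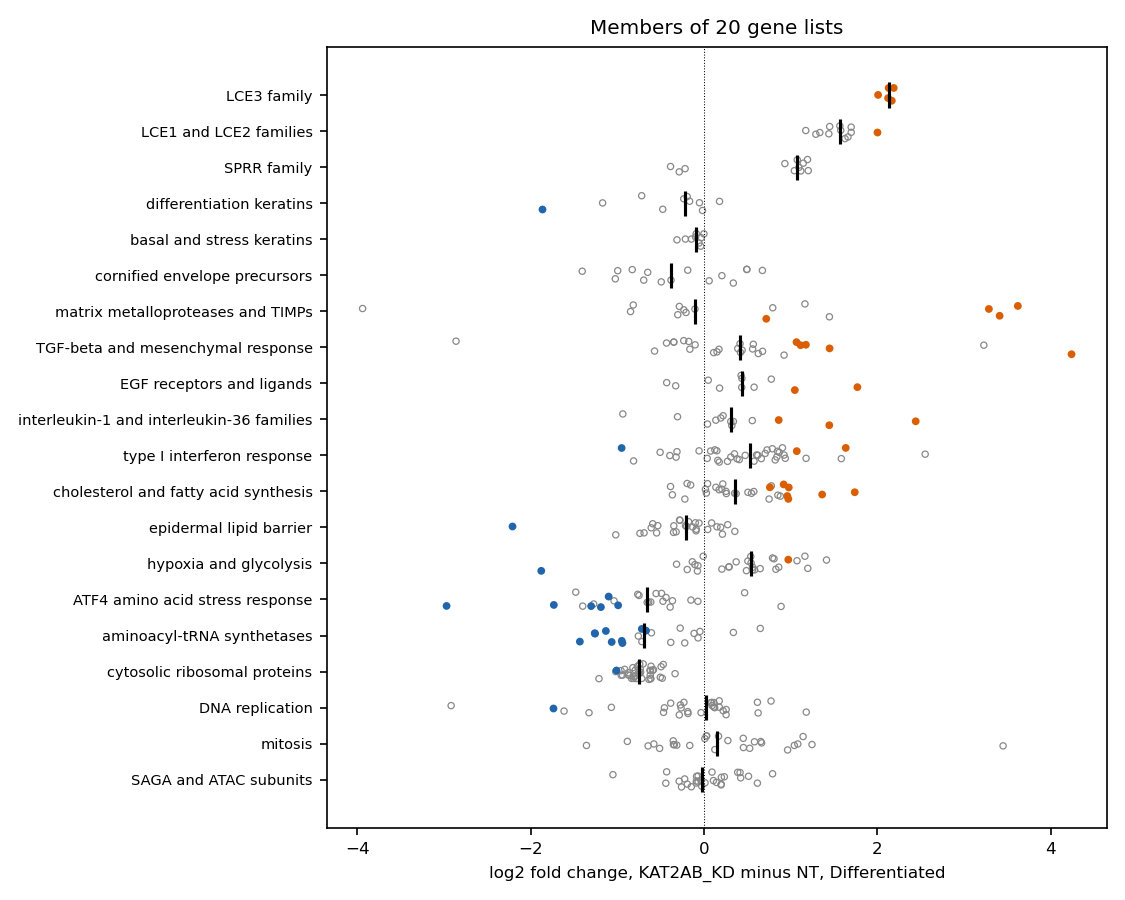
Each point is a gene of 1 of 20 lists, with its log2 fold change (KAT2AB_KD minus NT, Differentiated) on the x axis and the vertical jitter for display only. Filled points passed (orange higher, blue lower), open points did not, and black bars are list medians; the LCE3 genes sit near a log2 fold change of 2 and the aminoacyl-tRNA synthetases and ribosomal proteins lie mostly below 0.

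KRT1, the type II keratin of the first suprabasal layer, fell 3.66-fold. It stood at 11819 and 10059.7 CPM in NT and 3735 and 2248 CPM in KAT2AB_KD (log2 fold change -1.87, SE 0.29, adjusted p = 0.00169). Both KAT2AB_KD libraries lay well below both NT libraries, and the call held without any 1 library, but not in a fit of these 4 libraries alone (adjusted p = 0.0962). Its partner KRT10 went from 14246 and 11011 CPM to 7886 and 3340.2 CPM without passing (log2 fold change -1.17, SE 0.35, adjusted p = 0.0839). KRT1 was the 1 of 10 differentiation keratins that passed, and of 9 basal and stress keratins, KRT5 and KRT14 among them, 0 passed by edgeR or DESeq2, with log2 fold changes down to -0.31. Keratins share stretches of sequence, and where reads were counted at several of them the values are uncertain.

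Other late differentiation genes moved in both directions. Of 17 proteases and inhibitors of desquamation, the shedding of surface cells, 2 rose and 1 fell. KLK6, a kallikrein protease, stood at 22.4 and 35.5 CPM in NT and 133 and 79.9 CPM in KAT2AB_KD (log2 fold change 1.88, SE 0.38, adjusted p = 0.0138), lost without KAT2AB_KD replicate 1 (adjusted p = 0.092), NT replicate 1 (0.133) or NT replicate 2 (0.0538). ASPRV1, the aspartic protease that processes filaggrin, stood at 114 and 93 CPM in NT and 279 and 285 CPM in KAT2AB_KD (log2 fold change 1.44, SE 0.31, adjusted p = 0.0178), lost without KAT2AB_KD replicate 1 (adjusted p = 0.0731), NT replicate 1 (0.0787), KAT2AB_KD replicate 2 (0.0539) or NT replicate 2 (0.20). The groups did not overlap for either gene. KLK7, which cleaves corneodesmosomes, fell from 183 and 155 CPM to 78.3 and 89.4 CPM (log2 fold change -1.01, SE 0.26, adjusted p = 0.0409), lost without KAT2AB_KD replicate 1 (adjusted p = 0.20), NT replicate 1 (0.242), KAT2AB_KD replicate 2 (0.0895) or NT replicate 2 (0.15). Of 28 genes of the epidermal lipid barrier 1 fell (3.57%): ELOVL3, a fatty acid elongase, went from 51.1 and 82.6 CPM in NT to 15 and 13.8 CPM in KAT2AB_KD (log2 fold change -2.21, SE 0.44, adjusted p = 0.0142), lost without KAT2AB_KD replicate 1 (adjusted p = 0.0795), KAT2AB_KD replicate 2 (0.0632) or NT replicate 2 (0.165). Of 13 desmosome genes 1 rose, the plakophilin PKP2, from 3.33 and 6.22 to 22.1 and 9.89 CPM (log2 fold change 1.74, SE 0.31, adjusted p = 0.00608), lost without KAT2AB_KD replicate 1 (adjusted p = 0.0842) or NT replicate 1 (0.0855). Of 13 claudins and other tight junction genes 2 rose, CLDN7 (log2 fold change 1.89, SE 0.40, adjusted p = 0.0157) and CLDN17 (log2 fold change 2.34, SE 0.50, adjusted p = 0.0217), and neither call held without KAT2AB_KD replicate 1 (adjusted p = 0.0731 and 0.0805), NT replicate 1 (0.081 and 0.0651) or NT replicate 2 (0.148 and 0.24). The CLDN17 call was also lost without KAT2AB_KD replicate 2 (adjusted p = 0.0672).

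Of 26 tested epidermal transcription factors 2 rose and 2 fell (15.4%), with a list median of -0.22. SOX9, a factor of hair follicle progenitors, rose from 29.3 and 19.8 to 58.3 and 47.4 CPM (log2 fold change 1.10, SE 0.28, adjusted p = 0.0414). GATA3, needed for the lipid barrier, fell from 22.4 and 29.3 to 10.5 and 9.28 CPM (log2 fold change -1.38, SE 0.32, adjusted p = 0.0256). OVOL2, a repressor of mesenchymal genes, fell from 16.1 and 25.1 to 7.42 and 9.36 CPM (log2 fold change -1.29, SE 0.32, adjusted p = 0.033). Groups did not overlap for these 3, but SOX9 was lost without KAT2AB_KD replicate 1 (adjusted p = 0.174), NT replicate 1 (0.0713), KAT2AB_KD replicate 2 (0.0578) or NT replicate 2 (0.368), GATA3 without KAT2AB_KD replicate 1 (adjusted p = 0.0943), NT replicate 1 (0.0651), KAT2AB_KD replicate 2 (0.107) or NT replicate 2 (0.235), and OVOL2 without KAT2AB_KD replicate 1 (adjusted p = 0.176), KAT2AB_KD replicate 2 (0.068) or NT replicate 2 (0.34). Of 9 AP-1 factors, the dimeric regulators of many stress and matrix genes, 1 rose and 1 fell. JDP2, a repressor of AP-1, fell from 7.45 and 7.17 CPM in NT to 2.31 and 1.67 CPM in KAT2AB_KD (log2 fold change -1.87, SE 0.31, adjusted p = 0.00243), a call that held without any 1 library but not in a fit of these 4 libraries alone (adjusted p = 0.0648). FOS rose from 1.84 and 3.21 to 9.39 and 15.4 CPM (log2 fold change 2.30, SE 0.45, adjusted p = 0.0102), lost without NT replicate 1 (adjusted p = 0.109), KAT2AB_KD replicate 2 (0.056) or NT replicate 2 (0.0518). Of 20 Notch pathway genes HES2 fell (log2 fold change -0.85, SE 0.21, adjusted p = 0.032), lost without KAT2AB_KD replicate 1 (adjusted p = 0.242), NT replicate 1 (0.26) or NT replicate 2 (0.0907).

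MMP1, MMP3 and MMP10, matrix metalloproteases encoded next to each other on chromosome 11, rose, while MMP13 was tested and did not pass. MMP10, a stromelysin, stood at 6.04 and 5.47 CPM in NT and 55.5 and 67.3 CPM in KAT2AB_KD, 10.6-fold higher (log2 fold change 3.41, SE 0.25, adjusted p = 4.58e-07). MMP1, the interstitial collagenase, stood at 16.8 and 14.1 CPM in NT and 133 and 169.8 CPM in KAT2AB_KD, 9.77-fold higher (log2 fold change 3.29, SE 0.26, adjusted p = 4.90e-07). MMP3, another stromelysin, stood at 2.54 and 1.32 CPM in NT and 20.6 and 27.4 CPM in KAT2AB_KD (log2 fold change 3.62, SE 0.42, adjusted p = 0.000101). For each of the 3 the lowest KAT2AB_KD library lay several times above the highest NT library, and the calls held without any 1 library. With TIMP3, an inhibitor of these enzymes (log2 fold change 0.72, SE 0.17, adjusted p = 0.0238, lost without NT replicate 1 (adjusted p = 0.0679), KAT2AB_KD replicate 2 (0.14) or NT replicate 2 (0.24)), 4 of 15 tested members of the metalloprotease list rose (26.7%), while the list median was -0.10 (-0.10 also with 1 member at its bound).

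The MMP10 promoter is printed because MMP10 is the one of the 3 genes with a match in the RefSeq table; MMP1 and MMP3 had none. It lies at chr11:102780609-102780738 on the minus strand (GRCh38.p14), from 110 bases before the start to 20 after it.
MMP10: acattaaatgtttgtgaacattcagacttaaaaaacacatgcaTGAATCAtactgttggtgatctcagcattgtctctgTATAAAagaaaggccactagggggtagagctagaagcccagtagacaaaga
The first capitals mark a match to TGANTCA, a loose form of the AP-1 letters in which the middle base is free. Here the middle base is A, and the match begins 67 bases before the start. The second capitals mark TATAAA, 31 bases before the start. On either strand TGANTCA lies in 7.71% of 35116 promoters and TATAAA in 11.5%. Both are matches of letters, and occupancy was not measured.

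Other genes of matrix and migration rose as well. Of 27 tested genes of the TGF-beta and mesenchymal list 5 rose (18.5%) and 0 fell, with a list median of 0.42. THBS1, which encodes thrombospondin, stood at 325 and 209.9 CPM in NT and 737 and 725 CPM in KAT2AB_KD (log2 fold change 1.45, SE 0.25, adjusted p = 0.00375), lost without NT replicate 2 (adjusted p = 0.0906). CTGF, a secreted matricellular protein, had 3 reads in the 2 NT libraries and 69 in the 2 KAT2AB_KD libraries, a ratio of 20.03 (95% counting interval 6.57 to 99.5, counting error only; adjusted p = 0.00571), lost without NT replicate 2 (adjusted p = 0.0801). TGFBR1 (log2 fold change 1.18, SE 0.25, adjusted p = 0.0174), CYR61 (log2 fold change 1.07, SE 0.28, adjusted p = 0.0426) and TNC (log2 fold change 1.11, SE 0.29, adjusted p = 0.0443) were the other 3. None of these 5 calls held in a fit of these 4 libraries alone. Without KAT2AB_KD replicate 1 the list's count was 2, without NT replicate 1 it was 4 and without NT replicate 2 it was 0. FAP, a membrane serine protease, rose from 7.53 and 5.56 CPM to 21.9 and 22.1 CPM (log2 fold change 1.74, SE 0.26, adjusted p = 0.000926). DKK1, a secreted Wnt inhibitor, rose from 5.17 and 2.17 to 27.5 and 12.1 CPM (log2 fold change 2.42, SE 0.37, adjusted p = 0.00149). Both held without any 1 library. PLAT, the tissue plasminogen activator, had 0 reads in NT and 61 in KAT2AB_KD, at least 17.7-fold higher if the NT group is set to a floor of 3 counts in all (adjusted p = 0.000479), a call that held without any 1 library but not in a fit of these 4 libraries alone (adjusted p = 0.0556). Among 25 integrin, laminin and basement membrane genes, ITGB8 (log2 fold change 1.05, SE 0.26, adjusted p = 0.0377) and ITGA5 (log2 fold change 1.01, SE 0.26, adjusted p = 0.0412) rose and ITGA3 (log2 fold change -0.94, SE 0.19, adjusted p = 0.0138) fell. None of these integrin calls held without KAT2AB_KD replicate 1 (adjusted p = 0.0905, 0.199 and 0.111), NT replicate 1 (0.115, 0.141 and 0.0855) or NT replicate 2 (0.334, 0.328 and 0.0773), and those for ITGB8 and ITGA5 were also lost without KAT2AB_KD replicate 2 (0.11 and 0.0528).

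**Figure D3:**
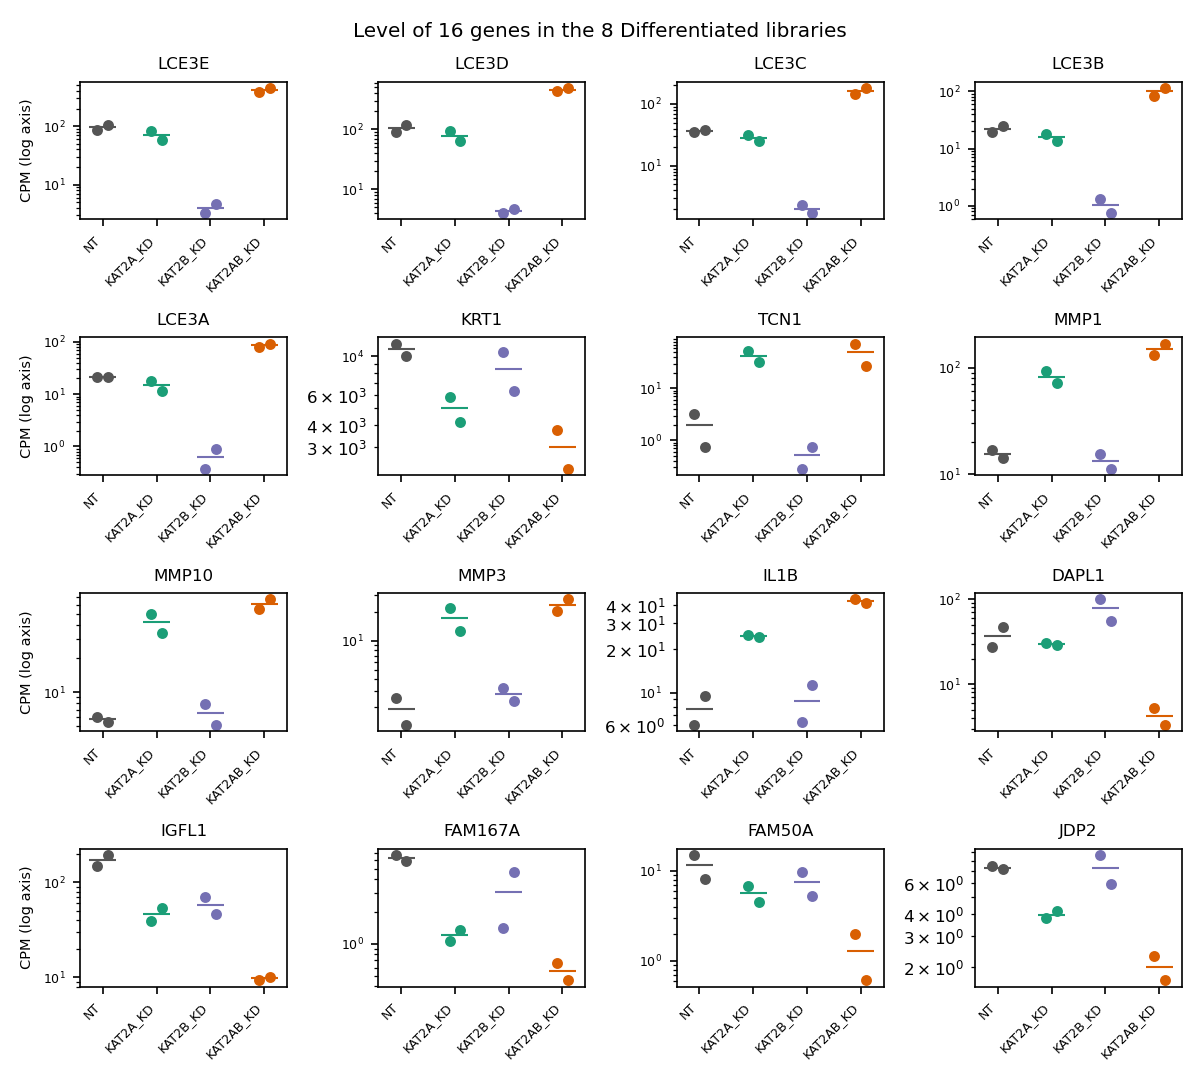
Points are the 8 Differentiated libraries (2 per genotype), lines are means of 2, and the y axes give CPM on a log scale that differs by panel. In the 5 LCE3 panels the KAT2AB_KD libraries lie above all others and the KAT2B_KD libraries below all others, while for MMP1, MMP10, MMP3, IL1B and TCN1 the KAT2A_KD libraries also lie above NT.

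Keratinocyte-derived cytokines and growth factors also changed. IL1B, the inflammatory cytokine interleukin-1 beta, stood at 6.04 and 9.52 CPM in NT and 43.7 and 40.9 CPM in KAT2AB_KD (log2 fold change 2.44, SE 0.27, adjusted p = 8.92e-05), with the groups apart and the call held without any 1 library. IL1A rose from 17.1 and 32.2 to 78 and 56.1 CPM (log2 fold change 1.45, SE 0.25, adjusted p = 0.00375), lost without NT replicate 1 (adjusted p = 0.0537). The receptor subunit IL1RAP rose as well (log2 fold change 0.86, SE 0.23, adjusted p = 0.0486), lost without KAT2AB_KD replicate 1 (adjusted p = 0.128), NT replicate 1 (0.0651), KAT2AB_KD replicate 2 (0.119) or NT replicate 2 (0.438), which makes 3 of 13 tested interleukin-1 and interleukin-36 family genes (23.1%). Among 11 EGF receptor and ligand genes the ligands EPGN (4.12 and 4.71 CPM in NT, 15.4 and 14.8 CPM in KAT2AB_KD; log2 fold change 1.77, SE 0.36, adjusted p = 0.0142) and EREG (60.6 and 53.3 CPM in NT and 145 and 90.8 CPM in KAT2AB_KD; log2 fold change 1.05, SE 0.23, adjusted p = 0.0174) rose. EPGN was lost without KAT2AB_KD replicate 1 (adjusted p = 0.0627), NT replicate 1 (0.104) or NT replicate 2 (0.099), and EREG without KAT2AB_KD replicate 1 (adjusted p = 0.176), NT replicate 1 (0.0751) or NT replicate 2 (0.187). SERPINB1, an inhibitor of neutrophil proteases, rose from 9.64 and 14.4 to 57.3 and 36.3 CPM (log2 fold change 1.96, SE 0.28, adjusted p = 0.000632), the 1 of 12 clade B serpins that passed, also without any 1 library. The chemokine CXCL14, made by resting epithelium, fell from 2137 and 2014 CPM to 676 and 404 CPM (log2 fold change -1.94, SE 0.40, adjusted p = 0.0142), lost without NT replicate 1 (adjusted p = 0.064), KAT2AB_KD replicate 2 (0.0875) or NT replicate 2 (0.0674). CXCL14 was the 1 of 14 tested chemokines and cytokines that passed.

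Of 16 S100 genes 2 rose and 1 fell. S100A7, psoriasin, stood at 131 and 266 CPM in NT and 782 and 467 CPM in KAT2AB_KD (log2 fold change 1.65, SE 0.40, adjusted p = 0.0312), lost without KAT2AB_KD replicate 1 (adjusted p = 0.169), NT replicate 1 (0.248) or NT replicate 2 (0.0523). S100A7A kept a ratio of 1.34 to 1.38 to it in the 4 libraries, so the 2 genes may share reads and their calls are uncertain as separate genes. S100A14 fell from 628 and 601 to 337 and 258 CPM (log2 fold change -1.05, SE 0.22, adjusted p = 0.0164), lost without NT replicate 1 (adjusted p = 0.080), KAT2AB_KD replicate 2 (0.10) or NT replicate 2 (0.0791). None of 11 antimicrobial genes passed by edgeR or DESeq2. Of 38 type I interferon response genes, IFIT3 (log2 fold change 1.64, SE 0.39, adjusted p = 0.0268) and DDX58 (log2 fold change 1.07, SE 0.28, adjusted p = 0.0443) rose and HERC6 (log2 fold change -0.95, SE 0.25, adjusted p = 0.0425) fell, with a list median of 0.53. IFIT3 stood at 2.45 and 1.41 CPM in NT and 3.79 and 8.29 CPM in KAT2AB_KD, high in replicate 2, and was lost without NT replicate 1 (adjusted p = 0.0651), KAT2AB_KD replicate 2 (0.26) or NT replicate 2 (0.287). DDX58 was lost without KAT2AB_KD replicate 1 (adjusted p = 0.0703), NT replicate 1 (0.0748), KAT2AB_KD replicate 2 (0.21) or NT replicate 2 (0.386), and HERC6 without KAT2AB_KD replicate 1 (adjusted p = 0.314), NT replicate 1 (0.233) or NT replicate 2 (0.15).

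Several genes of amino acid supply fell. ATF4 is the transcription factor of the amino acid stress response, and its known targets include amino acid transporters and the aminoacyl-tRNA synthetases, which load amino acids onto tRNAs. Of 25 tested genes of the ATF4 list 6 fell (24%) and 0 rose, with a median log2 fold change of -0.66. ATF4 itself stood at 242 and 316 CPM in NT and 140.2 and 120.1 CPM in KAT2AB_KD (log2 fold change -1.10, SE 0.23, adjusted p = 0.0144). DDIT3, a stress-induced bZIP factor, stood at 16.1 and 23.2 CPM in NT and 7.5 and 4.34 CPM in KAT2AB_KD (log2 fold change -1.73, SE 0.33, adjusted p = 0.00954). TRIB3, a feedback inhibitor of ATF4, stood at 121 and 128 CPM in NT and 53.2 and 56.1 CPM in KAT2AB_KD (log2 fold change -1.19, SE 0.25, adjusted p = 0.0159). In each of these genes both KAT2AB_KD libraries lay below both NT libraries. The same was true of SLC3A2, the shared subunit of several amino acid transporters (453 and 443 CPM in NT and 212 and 238 CPM in KAT2AB_KD; log2 fold change -0.99, SE 0.20, adjusted p = 0.0142), PCK2 (log2 fold change -1.30, SE 0.33, adjusted p = 0.0373) and STC2 (log2 fold change -2.97, SE 0.56, adjusted p = 0.00829). In a fit of the 4 libraries alone DDIT3 and STC2 held, while ATF4, TRIB3, SLC3A2 and PCK2 were lost. The list's count was 1 without KAT2AB_KD replicate 1, 3 without NT replicate 1, 5 without KAT2AB_KD replicate 2 and 0 without NT replicate 2.

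Of 20 cytosolic aminoacyl-tRNA synthetases 9 fell (45%) and 0 rose, with a median log2 fold change of -0.69. YARS, for tyrosine, stood at 134 and 121 CPM in NT and 38.7 and 67.7 CPM in KAT2AB_KD (log2 fold change -1.26, SE 0.24, adjusted p = 0.00854). AARS, for alanine, stood at 251 and 206 CPM in NT and 44.9 and 124 CPM in KAT2AB_KD (log2 fold change -1.43, SE 0.35, adjusted p = 0.0305). TARS, for threonine, stood at 219 and 252 CPM in NT and 95.9 and 149 CPM in KAT2AB_KD (log2 fold change -0.94, SE 0.20, adjusted p = 0.0164). The groups did not overlap for these 3, and KAT2AB_KD replicate 1 was the lower of the pair in each. The other six were GARS (-1.07), IARS (-1.26), LARS (-0.67), MARS (-1.13), NARS (-0.72) and SARS (-0.95, log2 fold changes; adjusted p = 0.0252 for NARS to 0.044 for SARS). DARS, for aspartate, stood at 44.8 and 60.3 CPM in NT and 92.9 and 72 CPM in KAT2AB_KD (log2 fold change 0.65, SE 0.20, adjusted p = 0.0863). The count rests on few libraries: 0 synthetases passed without KAT2AB_KD replicate 1, 1 without NT replicate 1, 1 without NT replicate 2 and 11 without KAT2AB_KD replicate 2, and 0 passed in a fit of these 4 libraries alone.

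**Figure D4:**
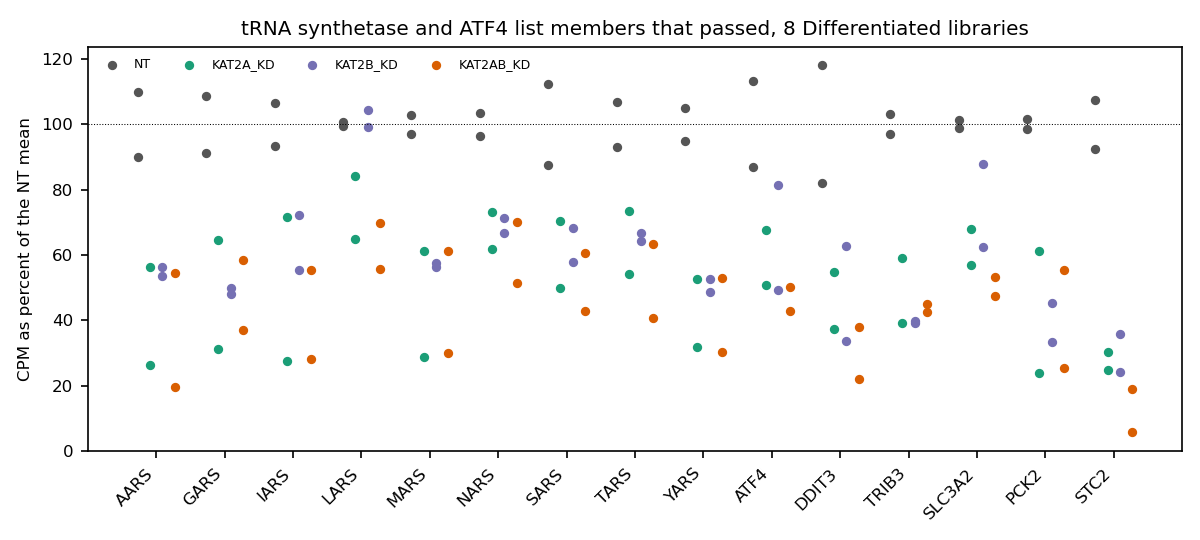
CPM of the 9 synthetases and 6 ATF4 list genes that passed, as percent of the mean of the 2 NT libraries (dotted line at 100), in the 8 Differentiated libraries. For these 15 genes both KAT2AB_KD libraries lie below both NT libraries, and for each but LARS in KAT2B_KD the single knockdown libraries do too.

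Promoter windows of 60 bases are shown for the synthetases that fell and hold TGATGNAA, letters of the element bound by ATF4 with a partner, on either strand (GRCh38.p14, RefSeq; LARS and YARS had no entry and SARS no match). AARS is at chr16:70289647-70289706 (minus strand), TARS at chr5:33440935-33440994 (plus), NARS at chr18:57621807-57621866 (minus), MARS at chr12:57488038-57488097 (plus), IARS at chr9:92293668-92293727 (minus) and GARS at chr7:30594819-30594878 (plus). Capitals mark the element, which on the strand printed mostly reads as its reverse complement.
AARS: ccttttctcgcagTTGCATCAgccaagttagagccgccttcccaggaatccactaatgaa
TARS: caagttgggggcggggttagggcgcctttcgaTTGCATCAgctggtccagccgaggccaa
NARS: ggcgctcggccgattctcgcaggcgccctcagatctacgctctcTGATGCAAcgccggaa
MARS: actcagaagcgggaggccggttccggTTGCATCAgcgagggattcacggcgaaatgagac
IARS: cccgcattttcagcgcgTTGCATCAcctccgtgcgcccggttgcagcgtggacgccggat
GARS: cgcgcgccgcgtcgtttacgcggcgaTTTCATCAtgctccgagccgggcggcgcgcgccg
Of the 7 synthetases that fell and matched an entry, 6 hold the letters in the window of 250 bases before to 50 after the start. So do 1 of 9 matched synthetases that did not pass (CARS, with no entry for DARS and VARS) and 4.46% of 27305 genes. A gene was counted if any of its annotated promoters holds the letters. In the ATF4 list, 1 of 6 genes that fell (SLC3A2) and 5 of 14 matched genes that did not pass hold them. The synthetases that did not pass are not an unchanged group, as 18 of 20 synthetases had fitted values below 0. Which of them passed rests on few libraries, and the shares were not tested. Whether ATF4 binds at these letters was not measured.

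Cytosolic ribosomal protein genes lay below NT with few single calls. Of 39 cytosolic ribosomal protein genes 1 passed (RPL11, 544 and 562 CPM in NT and 330.3 and 216 CPM in KAT2AB_KD; log2 fold change -1.02, SE 0.26, adjusted p = 0.0425), yet all 39 fitted values were below 0, 30 had both KAT2AB_KD libraries below both NT libraries, and the median was -0.74. The list's summed level was 66377 and 84029 CPM in NT and 58005 and 29519 CPM in KAT2AB_KD, so that KAT2AB_KD replicate 2 lay far below replicate 1. The median was -0.33 without KAT2AB_KD replicate 2 and -1.29 without KAT2AB_KD replicate 1. Ribosomal protein genes have many processed copies in the genome, which can share reads. DESeq2 called 6 of them, and 10 passed with no filter on low counts. RPL11 was lost without NT replicate 1 (adjusted p = 0.134), KAT2AB_KD replicate 2 (0.229) or NT replicate 2 (0.198), and no other ribosomal protein gene passed in those fits.

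Some genes of cholesterol and fatty acid synthesis rose. Of 30 genes 7 passed as higher (23.3%) and 0 as lower, with a list median of 0.36. HSD17B7, a reductase of the sterol pathway, stood at 6.75 and 6.69 CPM in NT and 18 and 16.6 CPM in KAT2AB_KD (log2 fold change 1.36, SE 0.21, adjusted p = 0.00137), a call that held without any 1 library but not in a fit of these 4 libraries alone (adjusted p = 0.0565). FADS2, a fatty acid desaturase, stood at 19.5 and 11.6 CPM in NT and 67.1 and 37.2 CPM in KAT2AB_KD (log2 fold change 1.74, SE 0.27, adjusted p = 0.00149), lost without NT replicate 2 (adjusted p = 0.0505). HMGCS1, which makes the precursor of mevalonate, stood at 274 and 263 CPM in NT and 496 and 522 CPM in KAT2AB_KD (log2 fold change 0.92, SE 0.22, adjusted p = 0.0304), lost without KAT2AB_KD replicate 1 (adjusted p = 0.0812), NT replicate 1 (0.141), KAT2AB_KD replicate 2 (0.0893) or NT replicate 2 (0.231). Groups did not overlap for these 3. The others were FADS1 (0.97), IDI1 (0.76), MSMO1 (0.98) and INSIG1 (0.96, log2 fold changes), the last a sterol-regulated brake on the pathway. Of the 7 calls only that for FADS2 held in a fit of these 4 libraries alone. Without KAT2AB_KD replicate 1 the count was 3, and without NT replicate 1 or NT replicate 2 it was 2.

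Other metabolic lists showed single genes. Of the NRF2 list, the pentose phosphate enzyme TKT (log2 fold change -1.0, SE 0.25, adjusted p = 0.0399) fell, lost without NT replicate 1 (adjusted p = 0.117), KAT2AB_KD replicate 2 (0.237) or NT replicate 2 (0.206). Of 29 hypoxia and glycolysis genes the collagen crosslinking enzyme LOX fell from 40.1 and 34.6 to 8.9 and 11.4 CPM (log2 fold change -1.88, SE 0.38, adjusted p = 0.0136), lost without KAT2AB_KD replicate 1 (adjusted p = 0.0943), NT replicate 1 (0.0756) or NT replicate 2 (0.0618). NDRG1 rose from 1141 and 985 CPM to 2319 and 1853 CPM (log2 fold change 0.97, SE 0.23, adjusted p = 0.0288), lost without KAT2AB_KD replicate 1 (adjusted p = 0.141), NT replicate 1 (0.0915) or NT replicate 2 (0.257). DESeq2 called 7 genes of that list higher, beside 1 by edgeR, and the median was 0.54.

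Chromatin regulators and cell cycle genes showed few calls. None of 29 SAGA and ATAC subunits other than the 2 targets, 17 other lysine acetyltransferases, 18 deacetylases and 28 bromodomain and acyl-lysine readers passed by edgeR. DESeq2 called 1 SAGA or ATAC subunit, 1 deacetylase and 1 reader, all lower. Of 30 DNA replication genes RFC3, a subunit of the clamp loader, fell (log2 fold change -1.74, SE 0.46, adjusted p = 0.0453), lost without KAT2AB_KD replicate 1 (adjusted p = 0.274), NT replicate 1 (0.112) or NT replicate 2 (0.282), and of 28 mitosis genes 0 passed by edgeR and 1 by DESeq2. Of 25 p53 targets and CDK inhibitors RRM2B rose (log2 fold change 0.87, SE 0.19, adjusted p = 0.0172), lost without KAT2AB_KD replicate 1 (adjusted p = 0.0712), NT replicate 1 (0.138), KAT2AB_KD replicate 2 (0.0614) or NT replicate 2 (0.099). CDKN1A, the cell cycle inhibitor p21, stood at 978 and 1022 CPM in NT and 639 and 635 CPM in KAT2AB_KD (log2 fold change -0.65, SE 0.18, adjusted p = 0.0623).

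The largest falls by the naming rule included genes outside these lists. IGFL1, a small secreted protein of the insulin-like growth factor family, stood at 149.9 and 194 CPM in NT and 9.31 and 10.2 CPM in KAT2AB_KD, 17.6-fold lower (log2 fold change -4.14, SE 0.36, adjusted p = 1.86e-06). DAPL1, a marker of early differentiating epithelium, stood at 27.2 and 47.3 CPM in NT and 5.19 and 3.35 CPM in KAT2AB_KD (log2 fold change -3.13, SE 0.46, adjusted p = 0.000926). FAM50A stood at 15 and 8.11 CPM in NT and 1.98 and 0.608 CPM in KAT2AB_KD (log2 fold change -3.16, SE 0.52, adjusted p = 0.00243). These calls and that for FAM167A (log2 fold change -3.49, SE 0.48, adjusted p = 0.000522) held without any 1 library. PRR9 (log2 fold change -3.29, SE 0.46, adjusted p = 0.00137) lies in the epidermal differentiation complex and was lost without NT replicate 2 (adjusted p = 0.054). The imprinted RNA H19 (log2 fold change -3.66, SE 0.78, adjusted p = 0.0164), CYP2W1 (log2 fold change -4.13, SE 0.87, adjusted p = 0.0252), SPON2 (log2 fold change -2.72, SE 0.60, adjusted p = 0.0211) and HOXD11 (log2 fold change -2.50, SE 0.56, adjusted p = 0.0208) were lost without any 1 of the 4 libraries, with adjusted p between 0.0641 and 0.157.
SMIM22 (log2 fold change -3.15, SE 0.65, adjusted p = 0.0143) was lost without KAT2AB_KD replicate 1 (adjusted p = 0.0566), KAT2AB_KD replicate 2 (0.0902) or NT replicate 2 (0.0927), and CYP2C18 (log2 fold change -2.65, SE 0.52, adjusted p = 0.0164) without KAT2AB_KD replicate 1 (adjusted p = 0.0952), KAT2AB_KD replicate 2 (0.0602) or NT replicate 2 (0.195).

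The largest rises by the same rule included TCN1, a vitamin B12 binding protein, at 3.15 and 0.754 CPM in NT and 73.8 and 26.6 CPM in KAT2AB_KD, 25.3-fold higher (log2 fold change 4.66, SE 0.61, adjusted p = 0.000522). CPNE8, a calcium-dependent membrane binding protein, stood at 0.788 and 1.41 CPM in NT and 9.97 and 9.58 CPM in KAT2AB_KD (log2 fold change 3.15, SE 0.47, adjusted p = 0.00106). KCTD12, an auxiliary subunit of GABA-B receptors, stood at 5.61 and 1.6 CPM in NT and 25.8 and 25.9 CPM in KAT2AB_KD (log2 fold change 2.83, SE 0.34, adjusted p = 0.000159). The lowest KAT2AB_KD library lay above the highest NT library by several times in each, and the 3 calls held without any 1 library. EFR3B (log2 fold change 3.31, SE 0.78, adjusted p = 0.033) was lost without KAT2AB_KD replicate 1 (adjusted p = 0.0766), NT replicate 1 (0.24), KAT2AB_KD replicate 2 (0.14) or NT replicate 2 (0.138). NFATC1 (log2 fold change 2.48, SE 0.63, adjusted p = 0.0388), a calcium-regulated factor, was lost without KAT2AB_KD replicate 1 (adjusted p = 0.0646), NT replicate 1 (0.237), KAT2AB_KD replicate 2 (0.197) or NT replicate 2 (0.212). The monocarboxylate carrier SLC16A7 (log2 fold change 2.55, SE 0.47, adjusted p = 0.00785) was lost without KAT2AB_KD replicate 1 (adjusted p = 0.0558), NT replicate 1 (0.0824) or NT replicate 2 (0.0784), and the steroid enzyme HSD17B3 (log2 fold change 2.68, SE 0.55, adjusted p = 0.0142) without KAT2AB_KD replicate 1 (adjusted p = 0.114), NT replicate 1 (0.0805) or NT replicate 2 (0.151).

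Set against the single knockdown KAT2A_KD at the same stage, KAT2AB_KD differed in 50 genes (0.317%), 20 higher (0.127%) and 30 lower (0.19%). This comparison and the one with NT share the KAT2AB_KD libraries. The count was 6 without KAT2AB_KD replicate 1, 12 without KAT2A_KD replicate 1, 12 without KAT2A_KD replicate 2 and 56 without KAT2AB_KD replicate 2. All 5 LCE3 genes were higher than in KAT2A_KD, where LCE3E stood at 82.6 and 57.8 CPM (log2 fold change 2.58, SE 0.24, adjusted p = 4.89e-05). The calls for LCE3C, LCE3D and LCE3E held without any 1 library, LCE3B was lost without KAT2A_KD replicate 2 (adjusted p = 0.0612), and LCE3A without KAT2AB_KD replicate 1 (adjusted p = 0.069), KAT2A_KD replicate 1 (0.0765) or KAT2A_KD replicate 2 (0.137). DAPL1 stood at 30.7 and 29 CPM in KAT2A_KD and was lower in KAT2AB_KD (log2 fold change -2.81, SE 0.45, adjusted p = 0.0124), lost without KAT2AB_KD replicate 1 (adjusted p = 0.0695), KAT2A_KD replicate 1 (0.0694) or KAT2AB_KD replicate 2 (0.0686). IGFL1 stood at 39.4 and 53.3 CPM in KAT2A_KD (log2 fold change -2.25, SE 0.34, adjusted p = 0.00501), lost without KAT2AB_KD replicate 1 (adjusted p = 0.0788) or KAT2A_KD replicate 2 (0.053). Of the interferon list 6 of 38 genes were lower than in KAT2A_KD, with a median of -0.95; the count was 0 without KAT2AB_KD replicate 1 or KAT2A_KD replicate 1, 3 without KAT2A_KD replicate 2 and 12 without KAT2AB_KD replicate 2. IFIT1 stood at 38.1 and 20.4 CPM in KAT2A_KD beside 4.2 and 11 CPM in KAT2AB_KD (log2 fold change -1.94, SE 0.37, adjusted p = 0.0337), lost without KAT2AB_KD replicate 1 (adjusted p = 0.188) or KAT2A_KD replicate 1 (0.298). NEFL (log2 fold change -1.97, SE 0.29, adjusted p = 0.00492) was lost without KAT2AB_KD replicate 1 (adjusted p = 0.0828), and MCMDC2 (log2 fold change -2.08, SE 0.36, adjusted p = 0.0183) without KAT2AB_KD replicate 1 (adjusted p = 0.0788), KAT2A_KD replicate 1 (0.129) or KAT2AB_KD replicate 2 (0.0938). For MMP1, MMP3 and MMP10 the differences from KAT2A_KD were 0.87, 0.46 and 0.55 on the log2 scale (SE 0.23, 0.35 and 0.22) and did not pass (adjusted p = 0.14, 0.742 and 0.405).

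Set against KAT2B_KD, KAT2AB_KD differed in 1739 genes (11%), 1024 higher (6.5%) and 715 lower (4.54%), again with the KAT2AB_KD libraries shared. The count was 682 without KAT2B_KD replicate 1 and 1018 without KAT2AB_KD replicate 2. LCE3E stood at 3.27 and 4.71 CPM in KAT2B_KD, below both NT libraries, and the log2 difference of KAT2AB_KD from it was 6.70 (SE 0.29, adjusted p = 3.52e-10). All 5 LCE3 genes and all 12 LCE1 and LCE2 list genes passed as higher, with medians of 6.70 and 4.44, as did 8 of 11 SPRR genes and 6 of 15 envelope precursors. TCN1 stood at 0.281 and 0.747 CPM in KAT2B_KD (log2 fold change 6.53, SE 0.71, adjusted p = 1.98e-05). Both KAT2AB_KD libraries lay far above both KAT2B_KD libraries for LCE3E and TCN1. Of 39 ribosomal protein genes 24 were lower than in KAT2B_KD, of 30 DNA replication genes 14 and of 28 mitosis genes 12. With only the KAT2AB_KD and KAT2B_KD Differentiated libraries fitted, 1 of 27 tested replication genes and 0 of 26 tested mitosis genes passed as lower. The ribosomal count was 2 without KAT2B_KD replicate 1, 0 without KAT2AB_KD replicate 2 or with only these 4 libraries fitted, and 39 without KAT2AB_KD replicate 1. Without KAT2AB_KD replicate 1 there were 7 replication and 7 mitosis genes, and without KAT2B_KD replicate 2 there were 6 and 8. The LCE and SPRR counts were the same in each fit without 1 library. DAPL1 stood at 99.7 and 55.7 CPM in KAT2B_KD, above both NT libraries, and was lower in KAT2AB_KD (log2 fold change -4.19, SE 0.47, adjusted p = 1.63e-05).

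The change against NT was compared between stages by interaction terms. Between Differentiated and Confluent it differed for 210 genes (1.33%), 114 with a higher value at Differentiated (0.723%) and 96 with a lower one (0.609%), and between Differentiated and Subconfluent for 315 genes (2.0%), 132 higher (0.838%) and 183 lower (1.16%). Over fits without 1 library the first count ran from 92 (without NT Differentiated replicate 2) to 284 (without KAT2AB_KD Differentiated replicate 2), with 107 and 111 without replicate 1 of KAT2AB_KD or NT Confluent, 119 without NT Confluent replicate 2, and 133 and 139 without replicate 1 of KAT2AB_KD or NT Differentiated. The second ran from 88 (without KAT2AB_KD Subconfluent replicate 2) to 427 (without KAT2AB_KD Differentiated replicate 2), and was 160 or less without any other library. Of the interferon list, 20 of 38 genes had a higher change at Differentiated than at Confluent (10 without NT Differentiated replicate 2, 13 to 25 without another library), where the median change against NT was -1.78. IFIT3 stood at 82.3 and 79.2 CPM in NT and 13 and 13.8 CPM in KAT2AB_KD at Confluent, the reverse order of Differentiated (difference 4.23, SE 0.50, adjusted p = 0.00017). MX2 stood at 84.5 and 102 CPM in NT and 7.3 and 5.69 CPM in KAT2AB_KD at Confluent, and at 17.9 and 11.7 CPM in NT and 17.9 and 38.8 CPM in KAT2AB_KD at Differentiated (difference 4.78, SE 0.63, adjusted p = 0.000411).

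Before Differentiated, the fitted median log2 fold changes of the LCE3 genes against NT were 2.79 at Confluent and 5.49 at Subconfluent. No calls were read from these earlier changes. By the interaction test 0 of the 5 changed less at Differentiated than at Confluent, and 2 changed less than at Subconfluent. In NT itself the LCE3 median rose by 8.61 on the log2 scale from Confluent to Differentiated. The earlier NT levels were thus far lower, and the earlier fitted sizes may depend on the prior count, a small count added in the fit. For the SPRR list the earlier fitted medians against NT, also without calls, were 2.42 and 3.35, beside 1.08 at Differentiated. Several other genes that rose at Differentiated were lower than in NT, or close to it, before that stage. IL1B stood at 93.2 and 83.7 CPM in NT and 48.3 and 57.7 CPM in KAT2AB_KD at Confluent (difference of changes 3.18, SE 0.37, adjusted p = 0.00017). FAP stood at 24.8 and 21.4 CPM in NT and 11.8 and 8.12 CPM in KAT2AB_KD at Confluent (difference 2.95, SE 0.35, adjusted p = 0.000173). DKK1 stood at 198 and 233 CPM in NT and 129 and 134 CPM in KAT2AB_KD at Subconfluent (difference 3.13, SE 0.49, adjusted p = 0.00206). DAPL1 and JDP2 went the other way. DAPL1 stood at 0.236 and 0.285 CPM in NT and 1.32 and 1.39 CPM in KAT2AB_KD at Confluent, so that both KAT2AB_KD libraries were higher there and lower at Differentiated (difference -5.46, SE 0.86, adjusted p = 0.00207). The NT levels at Confluent rest on few reads, so the size of this difference is uncertain. JDP2 stood at 2.44 and 2.66 CPM in NT and 5.77 and 7.78 CPM in KAT2AB_KD at Subconfluent (difference -3.28, SE 0.43, adjusted p = 0.000343). YARS stood at 79.6 and 66.6 CPM in NT and 91.9 and 82.6 CPM in KAT2AB_KD at Confluent (difference -1.52, SE 0.33, adjusted p = 0.0264), and this call was lost without KAT2AB_KD Confluent replicate 1 (adjusted p = 0.0997), NT Confluent replicate 1 (0.0576), KAT2AB_KD Differentiated replicate 1 (0.113), NT Differentiated replicate 1 (0.0902), NT Confluent replicate 2 (0.14) or NT Differentiated replicate 2 (0.0603). The calls for IL1B, FAP, IFIT3 and JDP2 held without any 1 library. The interaction calls for DAPL1, IFI44L, MX2 and SBSN (against Confluent) and for ACPP, DKK1, PGLYRP3 and STC2 (against Subconfluent) held without any 1 library.

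**Figure D5:**
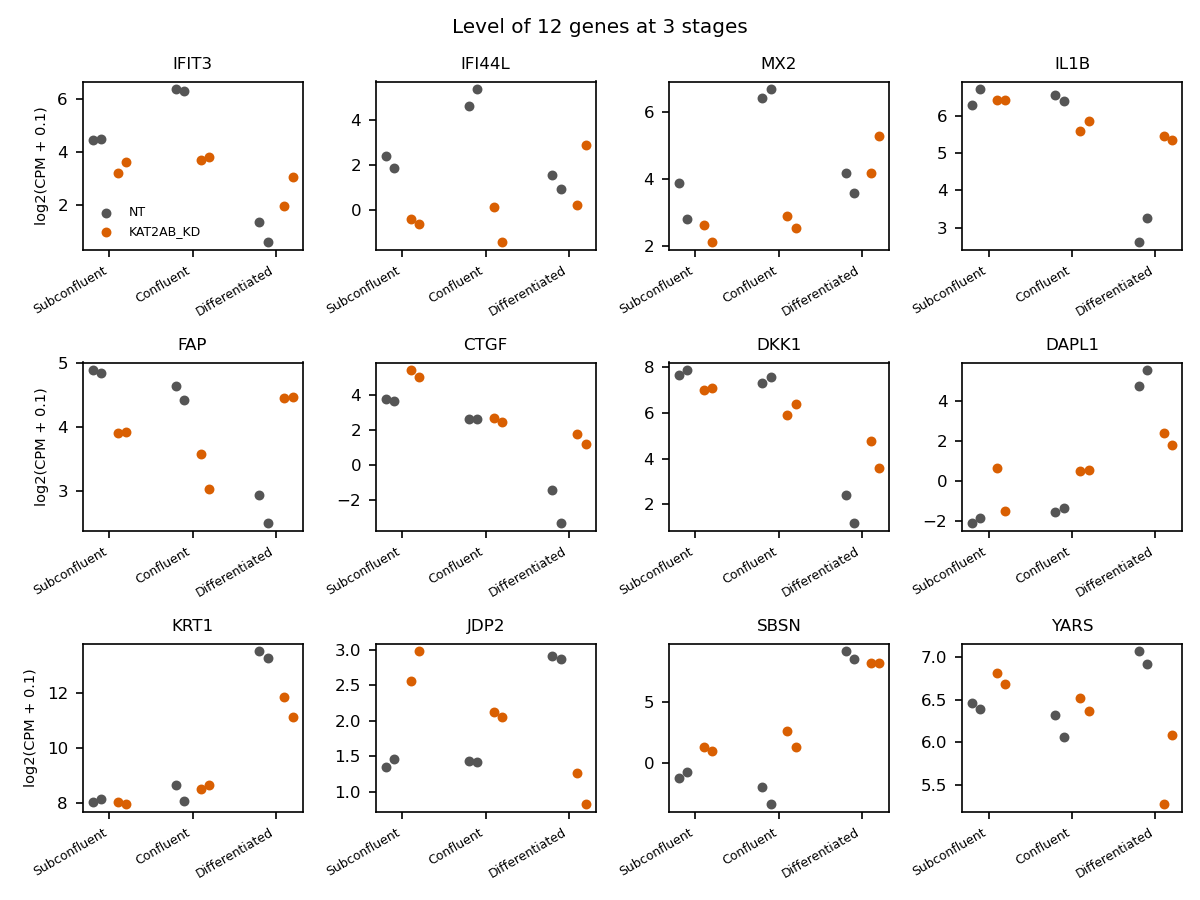
Points are libraries (NT grey, KAT2AB_KD orange, 2 each) at 3 stages, and the y axis is log2(CPM + 0.1). In NT, IL1B, FAP and DKK1 lie lower at Differentiated than at Confluent, and at Differentiated below KAT2AB_KD; IFIT3 and MX2 are far lower in KAT2AB_KD than in NT at Confluent, and DAPL1 and JDP2 change order between stages.

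Markers of other cell types were low. Summed over its markers, the keratinocyte list gave 67558 and 62761 CPM in NT and 51306 and 39474 CPM in KAT2AB_KD, with 1 of 12 members passed (KRT1, lower). The fibroblast list summed to 46.1 to 61.3 CPM and the immune list to 44.1 to 71.5 CPM over the 4 libraries, the melanocyte list to 10.9 to 16.7, the Merkel list to 3.58 to 8.90 and the endothelial list to 0.471 to 3.54 CPM. Both KAT2AB_KD libraries lay below both NT libraries in the keratinocyte sum and above both in the immune, melanocyte, Merkel and endothelial sums, and the fibroblast sums overlapped. At 0 reads in the 4 libraries were 4 of 6 endothelial markers (PECAM1 and CDH5 among them), 5 of 12 immune markers (CD3D and CD3E among them), 2 of 8 melanocyte markers (TYR and DCT), 2 of 5 Merkel markers (ATOH1 and CHGA) and 1 of 10 fibroblast markers (PDGFRA). FAP, on the fibroblast list, passed as higher (above), while COL1A1 stood at 51.1 and 39.7 CPM in NT and 35.3 and 34.8 CPM in KAT2AB_KD (log2 fold change -0.37, SE 0.26, adjusted p = 0.531). MITF, on the melanocyte list, passed as higher (1.93 and 2.36 CPM in NT, 7.58 and 5.4 CPM in KAT2AB_KD; log2 fold change 1.60, SE 0.43, adjusted p = 0.0496), lost without KAT2AB_KD replicate 1 (adjusted p = 0.204), NT replicate 1 (0.255), KAT2AB_KD replicate 2 (0.0589) or NT replicate 2 (0.224), beside 7.18 and 8.3 CPM in NT and 4.37 and 3.19 CPM in KAT2AB_KD of the melanosome protein PMEL. The part of other cells in these results was not tested.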

How the data were processed

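RNA from 24 libraries was sequenced single-end from a directional, poly(A)-selected preparation, per the labels' protocols. The deposited table holds read counts per gene for 26364 symbols. The submitters' processing notes name FastQC, Bowtie2, featureCounts, DESeq2 and hg19 without their roles, and the strand setting and the treatment of reads with several hits are not given in the sources used here. A column of counts that matched no sample (1 column) was not used, and 28 symbols garbled to dates are not named. Counts were filtered with filterByExpr by group, TMM-scaled and fitted with edgeR (4.0.16, R 4.3.3) by quasi-likelihood in 12 groups without covariates, with Benjamini-Hochberg adjustment over 15757 genes and a threshold of 0.05. The standard error is the size of the log2 fold change divided by the square root of F. In simulated counts the test recovered 25.3% of 99 genes changed by 1 and 67.3% of 98 changed by 2 on the log2 scale, and 0.065% of unchanged genes were called. The simulation gave each gene the same spread in all groups, as the fit assumes, so these are not error rates of the data. Depths were 8010178 to 16054003 counts, and counting intervals and floors of 3 counts cover counting error only. Named genes are the targets, the 12 highest and 12 lowest (6 in each other comparison) past the threshold whose log2 CPM averages 1 or more and whose groups do not overlap (no such condition on the stage differences), up to 4 members per list with the lowest p, and members needed to account for a list's count. The members, the 51 lists and the naming rule were chosen with earlier results of these data known. Alternatives were DESeq2 (1.42.0), its size factors, no filter, only the groups compared, a replicate block and leaving out each library. Results for some genes are not reported here.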

Additional observations from a re-analysis of the deposited data

Results flagged for a closer look

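For 27 genes named by size, the change of KAT2AB_KD against NT at Differentiated differed from the change at an earlier stage by the interaction test, 7 of them at both earlier stages. All values here are differences of log2 fold changes, Differentiated minus the earlier stage. Each was also fitted without each of the 8 libraries in turn, an alternative added after the data were seen: of the 34 differences 13 stayed past the threshold in all 8 fits and 21 did not, and none changed sign.

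Interferon-induced genes had a higher change at Differentiated than at Confluent: IFI44L by 6.45, IFIT2 by 4.87, MX2 by 4.78 and RSAD2 by 4.74, and against Subconfluent IFI44 by 2.70. IFI44L stood at 24.3 and 40.7 CPM in NT and 1.0 and 0.278 CPM in KAT2AB_KD at Confluent, and at 2.8 and 1.79 CPM in NT and 1.07 and 7.3 CPM in KAT2AB_KD at Differentiated, where the groups overlapped. The calls for IFI44L and MX2 held without any 1 library. IFIT2 was lost without KAT2AB_KD Differentiated replicate 2 (adjusted p = 0.0661) or NT Differentiated replicate 2 (0.0658). RSAD2 was lost in 7 of 8 such fits (adjusted p from 0.0619 to 0.236, held without KAT2AB_KD Differentiated replicate 1). IFI44 was lost in 5 of 8 such fits (adjusted p from 0.0501 to 0.0882, held without KAT2AB_KD Differentiated replicate 1, NT Differentiated replicate 1 or NT Subconfluent replicate 2), and its difference was 1.75 without KAT2AB_KD Differentiated replicate 2. Matrix and signalling genes were also higher in this sense: CTGF by 4.30 against Confluent, and DKK1 by 3.13, VIM by 2.82, TNFSF9 by 2.75 and ADAM19 by 2.73 against Subconfluent. DKK1 held without any 1 library. CTGF was lost without KAT2AB_KD Differentiated replicate 1 (adjusted p = 0.062) or NT Differentiated replicate 2 (0.121), and its difference was 8.24 without NT Differentiated replicate 1. VIM was lost without KAT2AB_KD Differentiated replicate 1 (adjusted p = 0.144), where its difference was 1.92. TNFSF9 was lost in 5 of 8 such fits (adjusted p from 0.0601 to 0.090, held without NT Subconfluent replicate 1, NT Differentiated replicate 1 or KAT2AB_KD Differentiated replicate 2), and ADAM19 in 7 of 8 such fits (adjusted p from 0.0734 to 0.141, held without KAT2AB_KD Differentiated replicate 2). VIM, whose reads cannot be told from those of the antisense gene VIM-AS1 if strand was not used, stood at 107 and 161 CPM in NT and 13.4 and 13.5 CPM in KAT2AB_KD at Subconfluent, and at 3.77 and 1.79 CPM in NT and 2.97 and 1.06 CPM in KAT2AB_KD at Differentiated. IL1B was higher by 3.18 against Confluent and 2.55 against Subconfluent, and KCTD12 by 2.05 and 2.61. Without any 1 library both IL1B calls held, and so did that for KCTD12 against Subconfluent. Against Confluent KCTD12 was lost in 6 of 8 such fits (adjusted p from 0.0588 to 0.094, held without NT Differentiated replicate 1 or KAT2AB_KD Differentiated replicate 2), and its difference was 3.23 without NT Differentiated replicate 1. PLAT gave fitted differences of 6.96 and 7.03, which depend on the prior count because NT had 0 reads at Differentiated; these calls were lost without NT Differentiated replicate 1 (adjusted p = 0.0642) or NT Differentiated replicate 2 (0.0671) against Confluent, and without NT Differentiated replicate 1 (adjusted p = 0.0535) or NT Differentiated replicate 2 (0.0537) against Subconfluent.

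Lower differences against both earlier stages, Confluent first, were fitted for IGFL1 (-2.66 and -4.02), DAPL1 (-5.46 and -5.55), STC2 (-3.23 and -5.82) and ADAP2 (-4.50 and -7.35). Both IGFL1 calls, DAPL1 against Confluent and STC2 against Subconfluent held without any 1 library. DAPL1 against Subconfluent was lost without KAT2AB_KD Subconfluent replicate 1 (adjusted p = 0.259). STC2 against Confluent was lost in 7 of 8 such fits (adjusted p from 0.0536 to 0.23, held without KAT2AB_KD Differentiated replicate 2). ADAP2 was lost in 5 of 8 such fits (adjusted p from 0.063 to 0.153, held without NT Differentiated replicate 1, KAT2AB_KD Confluent replicate 2 or KAT2AB_KD Differentiated replicate 2) against Confluent, and without NT Subconfluent replicate 1 (adjusted p = 0.0791), KAT2AB_KD Subconfluent replicate 2 (0.0725) or NT Subconfluent replicate 2 (0.0596) against Subconfluent. IGFL1 stood at 12.2 and 13 CPM in NT and 3.65 and 5.48 CPM in KAT2AB_KD at Confluent, beside 149.9 and 194 CPM in NT and 9.31 and 10.2 CPM in KAT2AB_KD at Differentiated. Against Confluent alone, H19 differed by -4.84, EPHB6 by -5.59, SBSN by -6.42, RPTN by -7.01 and SEMA6D by -7.16. SBSN held without any 1 library, with a difference of -9.57 without NT Confluent replicate 1. H19 was lost in 7 of 8 such fits (adjusted p from 0.059 to 0.174, held without NT Confluent replicate 1), and its difference was -7.38 without NT Confluent replicate 1. EPHB6 was lost without KAT2AB_KD Confluent replicate 1 (adjusted p = 0.0547) or NT Confluent replicate 1 (0.0555), and its difference was -8.73 without NT Confluent replicate 2. RPTN was lost in 6 of 8 such fits (adjusted p from 0.0701 to 0.22, held without KAT2AB_KD Confluent replicate 2 or KAT2AB_KD Differentiated replicate 2), and SEMA6D in 6 of 8 such fits (adjusted p from 0.0596 to 0.184, held without KAT2AB_KD Confluent replicate 2 or KAT2AB_KD Differentiated replicate 2). Against Subconfluent alone, ASPRV1 differed by -6.07, PGLYRP3 by -6.72, SPON2 by -6.88, WFDC5 by -7.09 and ACPP by -7.73. PGLYRP3 and ACPP held without any 1 library. ASPRV1 was lost in 7 of 8 such fits (adjusted p from 0.0501 to 0.19, held without KAT2AB_KD Differentiated replicate 2), SPON2 in 8 of 8 such fits (adjusted p from 0.0544 to 0.203), and WFDC5 without NT Subconfluent replicate 1 (adjusted p = 0.0971), KAT2AB_KD Subconfluent replicate 2 (0.0705) or NT Subconfluent replicate 2 (0.0705). In NT at the earlier stage RPTN, SEMA6D, ASPRV1, PGLYRP3, SPON2, WFDC5, ACPP and, at Subconfluent, ADAP2 were listed at 0 in both libraries and EPHB6 and SBSN in 1, so these fitted values depend on the prior count.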

How the results depend on the processing

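With DESeq2 the counts of genes past the threshold were 739 (against NT), 189 (against KAT2A_KD), 2193 (against KAT2B_KD), 431 (change compared with Confluent) and 666 (with Subconfluent). With no filter on low counts they were 782, 240, 2197, 548 and 634. With only the groups compared they were 122, 8, 386, 85 and 128; the share that was higher then moved from 58.9% to 83.2% against KAT2B_KD and from 41.9% to 18.75% for the difference with Subconfluent, and the majority direction turned against KAT2A_KD (20 higher and 30 lower, against 6 and 2) and for the difference with Confluent (114 and 96, against 34 and 51). It also turned with DESeq2 against KAT2A_KD (100 higher and 89 lower) and with no filter on low counts for the difference with Confluent (233 and 315). Without 1 library the counts ran from 67 to 326, 6 to 56, 682 to 1956, 92 to 284 and 88 to 427. With the replicate block they were 496, 75, 1997, 263 and 373. The replicate numbers were not taken as pairs: same-numbered libraries of KAT2AB_KD and NT deviated with a correlation of -0.078, and 38 of 66 pairs of groups lay over 0.1. DESeq2's size factors gave 443 against NT, 49 against KAT2A_KD and 1748 against KAT2B_KD. Of 249 named genes 103 passed against NT, 23 in all 4 fits without 1 library and 19 in every alternative, and 0 of the 103 changed sign; 57 of the 103 were lost with only the groups compared. With 2 libraries a group, changes of modest size are often missed.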

Other observations

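Some further genes, chosen after their values were seen, changed between KAT2AB_KD and NT. The 3 butyrophilins BTN3A1 (3.77 and 1.89 CPM in NT, 8.9 and 9.36 CPM in KAT2AB_KD; log2 fold change 1.68, SE 0.27, adjusted p = 0.00243), BTN3A2 (log2 fold change 1.39, SE 0.27, adjusted p = 0.0105) and BTN3A3 (log2 fold change 1.29, SE 0.28, adjusted p = 0.0174), of a family that takes part in activating gamma-delta T cells, rose and may share reads. BTN3A1 was lost without NT replicate 2 (adjusted p = 0.0702), BTN3A2 without KAT2AB_KD replicate 2 (adjusted p = 0.0927) or NT replicate 2 (0.157), and BTN3A3 without KAT2AB_KD replicate 2 (adjusted p = 0.154) or NT replicate 2 (0.24). HCAR2, a receptor for niacin and ketone bodies, rose from 10.6 and 11.6 to 28.6 and 22 CPM (log2 fold change 1.19, SE 0.23, adjusted p = 0.0111), with near-identical values for HCAR3, and was lost without KAT2AB_KD replicate 1 (adjusted p = 0.0846), NT replicate 1 (0.0855) or NT replicate 2 (0.0815). KPRP, a proline-rich protein of the epidermal differentiation complex, rose from 11.6 and 10.9 to 46.9 and 41.9 CPM (log2 fold change 1.98, SE 0.46, adjusted p = 0.0386), lost without KAT2AB_KD replicate 1 (adjusted p = 0.142), NT replicate 1 (0.189), KAT2AB_KD replicate 2 (0.0893) or NT replicate 2 (0.267). Among genes that fell, HOXD10 stood at 2.89 and 3.3 CPM in NT and 0.0824 and 0.228 CPM in KAT2AB_KD (adjusted p = 0.0434), lost without KAT2AB_KD replicate 1 (adjusted p = 0.223), NT replicate 1 (0.141), KAT2AB_KD replicate 2 (0.115) or NT replicate 2 (0.215). UGT1A6, a glucuronosyltransferase that shares exons with the other UGT1A genes, fell from 35.6 and 34 to 15.7 and 11 CPM (log2 fold change -1.38, SE 0.28, adjusted p = 0.0138), lost without NT replicate 1 (adjusted p = 0.0679), KAT2AB_KD replicate 2 (0.0907) or NT replicate 2 (0.0728). The translation initiation subunit EIF3C, which shares its reads with EIF3CL, fell from 514 and 439 to 270.3 and 258 CPM (log2 fold change -0.85, SE 0.20, adjusted p = 0.0261), lost without KAT2AB_KD replicate 1 (adjusted p = 0.0882), NT replicate 1 (0.171), KAT2AB_KD replicate 2 (0.0954) or NT replicate 2 (0.0791).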
